A study of Mus musculus with 24 samples.

Results

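The genes described here are 9 components and regulators of the complement system, read on expression arrays of the adult mouse spinal cord. They are the C1q chain genes C1qa, C1qb and C1qc, the component genes C3, C4b and Hc (which encodes C5), the protease gene Cfb, the inhibitor gene Serping1 and the receptor gene C3ar1. They were chosen by name with earlier results of these data known, and each was read from probe sets that name it alone. Of the 9, 8 were measured in each table, among 17097 genes on the ependymal arrays and 22180 on the neurosphere arrays. C3 was not analysed here. The ependymal arrays hold RNA of the laser-microdissected region around the central canal of 3-month-old adult CD1 mice. There were 6 sham mice, which had a laminectomy and no needle, and 6 injured mice, in which a needle was inserted repeatedly into the cord beside the canal 3 days before. The neurosphere arrays hold RNA of 4 cultures from adult spinal cord in 3 conditions. Growing cultures had EGF, FGF2 and heparin. Cultures without factors were plated for 3 days on coverslips coated with poly-D-lysine and laminin, in 2% fetal bovine serum. Returned cultures were treated the same way and then had EGF, FGF2 and heparin, with the serum removed, for 3 days. Removal of the factors thus came together with serum, attachment and loss of heparin, and their parts cannot be told apart. Return of the factors came together with heparin and the removal of serum, whose parts cannot be told apart either.

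Complement is a cascade of plasma and tissue proteins that marks targets and can end in pores in membranes. In the classical pathway C1q binds a target and activates the proteases C1r and C1s, which cleave C4 and C2. The lectin pathway reaches the same cleavage through mannose-binding lectins and their proteases, and the alternative pathway uses factor B. All 3 pathways lead to the cleavage of C3 and then C5. Regulators restrain each step, among them the C1 inhibitor encoded by Serping1, factor I, and CD55 and CD59 on the cell surface. In the central nervous system C1q comes mainly from microglia, whereas astrocytes are a known source of C4.

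C1qb and C1qc are neighbours on chromosome 4, with C1qa next to C1qc, and Hc lies on chromosome 2. The 250 bases before the RefSeq start are shown for C1qb and C1qc, because these neighbours changed together after injury, and for Hc, the member that fell. They are from RefSeq (GRCm38.p6), which the table used here gives for 5 of the 9 members, and all are on the minus strand. Capitals mark GGAAGT, a sequence that ETS factors bind, on either strand in C1qb and C1qc, and TATAAA, the TATA sequence, in Hc.
C1qb, chr4:136886201-136886450: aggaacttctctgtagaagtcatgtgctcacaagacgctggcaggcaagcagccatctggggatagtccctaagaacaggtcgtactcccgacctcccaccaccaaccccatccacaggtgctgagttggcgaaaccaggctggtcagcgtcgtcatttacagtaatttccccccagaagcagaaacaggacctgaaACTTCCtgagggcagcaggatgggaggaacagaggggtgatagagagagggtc
C1qc, chr4:136892915-136893164: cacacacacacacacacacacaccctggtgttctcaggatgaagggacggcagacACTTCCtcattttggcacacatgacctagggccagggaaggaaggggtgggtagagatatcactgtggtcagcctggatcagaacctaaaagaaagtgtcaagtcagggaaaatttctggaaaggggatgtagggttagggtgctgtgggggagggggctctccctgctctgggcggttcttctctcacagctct
Hc, chr2:35061413-35061662: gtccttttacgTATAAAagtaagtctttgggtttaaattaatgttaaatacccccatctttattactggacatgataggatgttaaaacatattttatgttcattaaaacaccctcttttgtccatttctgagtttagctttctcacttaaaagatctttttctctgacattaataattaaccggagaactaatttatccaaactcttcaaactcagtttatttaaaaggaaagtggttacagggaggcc
The 2 C1q stretches each held 1 match to GGAAGT, on the strand opposite to the gene, as did 19.7% of all 32851 stretches of that length (both strands searched). Hc and C3ar1 had none. The Hc stretch held TATAAA once, and so did that of C3ar1, against 12.4% of all stretches. Both matches lay near the end of the stretch that is far from the start of the gene. None of the 4 stretches held TTCNNNGAA (STAT factors, 7.0% of all), TTGCNNAA (C/EBP factors, 9.6%) or TGTTTA (forkhead factors, 12%). These are matches of letters and were not tested as binding sites.

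Values are signals of probe sets on the log2 scale, so that a difference of 1 is a 2-fold change, and levels were compared between samples and not between genes. Groups were compared with limma over all probe sets, and a gene was called at a Benjamini-Hochberg adjusted p under 0.05. The ependymal arrays fell into 3 sets with different signal distributions, which were mice 1-2, 3-4 and 5-6 of both groups. Differences are therefore also given within each set, in that order. The label of an ependymal region was checked against markers. The mean log2 signal of 11 ependymal genes was 9.76 to 10.39 in sham mice, and that of 10 neuron genes was 8.64 to 10.07, so that neuron markers were measured in the dissected region as well. Skeletal muscle markers were highest in sham mice 3, 4 and 6 and injured mouse 6.

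After injury, 5 of the 8 measured complement genes rose and 1 fell. Among all genes 2.91% rose and 1.87% fell. The count that rose was 3 with arrays centred on their medians, after quantile normalization or with array weights, 2 without moderation, and 3 without sham mouse 5 or without injured mouse 6, by loss of C1q genes. It was 6, by gain of C3ar1, with the set or the replicate number as a block or with the mean of all probe sets. Serping1, C4b and the 3 C1q chain genes were the ones that rose, Hc was the one that fell, and C3ar1 and Cfb did not pass. The median difference of the 8 was 1.22 on the log2 scale, compared with 0.02 over all genes. The members were chosen with earlier results known, and Serping1 is among the largest rises listed in the paper. Shares and medians set beside all genes are therefore descriptions and not tests. Among all genes, 2.88% were higher and 1.54% lower in injured mice without overlap of the groups. In this bulk RNA, fewer cells of a type and less RNA per cell cannot be told apart.

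**Figure D1:**
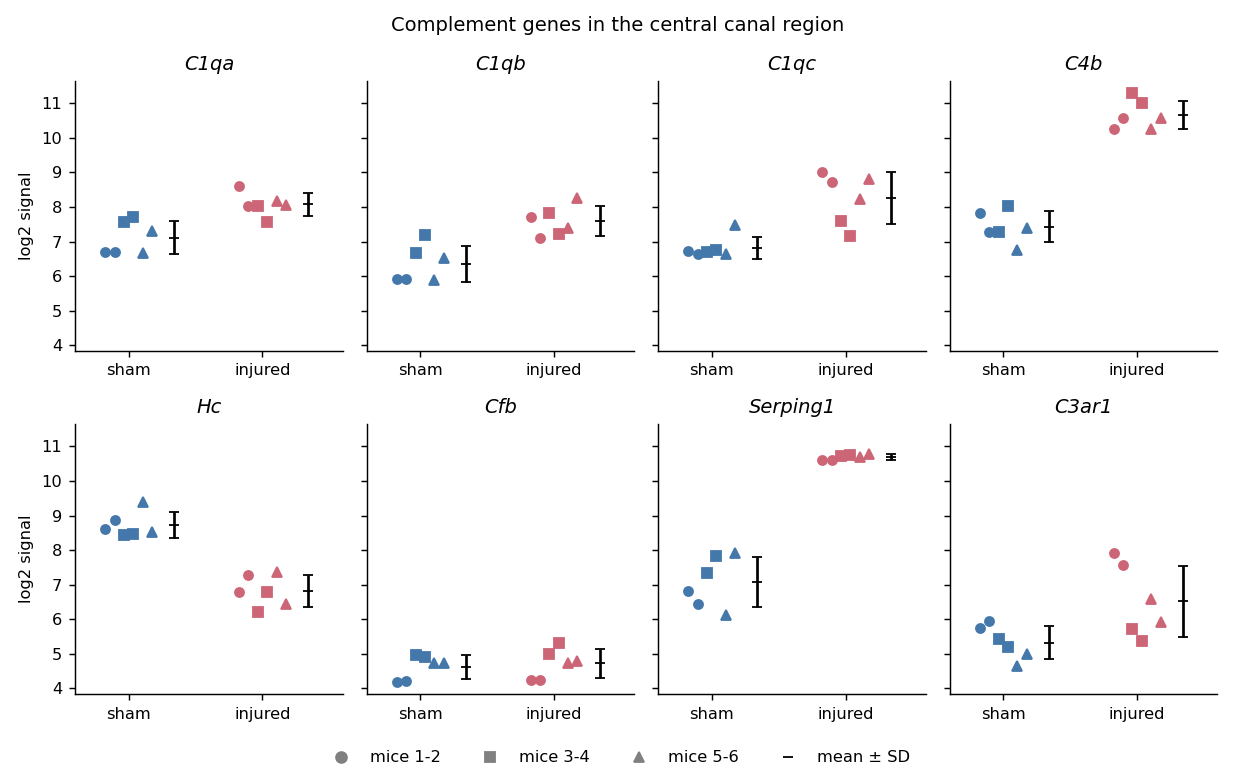
Log2 signal of 8 complement genes on each ependymal array, by group (6 sham, 6 injured mice), with symbols for the sets of mice and the mean ± SD beside each group. For C4b, Serping1 and Hc no sham array lies among the injured arrays, whereas for Cfb the symbols separate the sets and not the groups. Among all genes, 2.88% were higher and 1.54% lower without overlap.

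The inhibitor gene Serping1 had the largest difference of the members. Its protein blocks C1r, C1s and the lectin pathway proteases. In sham mice 1 to 6 its log2 signal was 6.82, 6.44, 7.34, 7.83, 6.14 and 7.92. In injured mice it was 10.62, 10.60, 10.71, 10.76, 10.68 and 10.79. All injured mice were above all sham mice, and they lay close together (SD 0.08, n = 6) while sham mice varied (SD 0.73, n = 6). The difference was 3.61 ± 0.28 on the log2 scale (SE), 12.2-fold, with an adjusted p of 1.82e-05. Within the sets it was 3.98, 3.15 and 3.71. The smallest of these came from mice 3-4, where the sham level was higher and the injured level was not lower.

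C4b encodes C4, which is cleaved after C1 activation and whose larger fragment binds covalently to targets. Its log2 signal in sham mice 1 to 6 was 7.82, 7.28, 7.28, 8.01, 6.75 and 7.39. In injured mice it was 10.26, 10.58, 11.29, 11.01, 10.26 and 10.56. The groups did not overlap, and the difference was 3.24 ± 0.23 on the log2 scale (SE), 9.43-fold (adjusted p = 1.06e-05). Within the sets it was 2.87, 3.50 and 3.34. C4b has a near-identical copy, C4a, so this signal may include both. Some astrocyte markers were higher after injury as well. Of 10 measured, 3 rose and 7 had a difference above 0, with a median of 0.19. The brightest were Gja1, a gap junction gene, which differed by -0.05 and did not pass, and Aldoc, an enzyme of glycolysis, which rose by 0.65. The mean of the 10 ranged from 7.87 to 8.70 in sham and 8.45 to 9.34 in injured mice. Among sham mice it was highest in mice 1 and 2 (8.65 and 8.70) and lowest in mice 3 and 4 (7.92 and 7.87). Serping1 was instead higher in sham mice 3 and 4 than in sham mice 1 and 2. The part of astrocytes in the result was not tested.

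Hc, which encodes C5, was the only member that fell. Cleavage of C5 starts the terminal pore and releases the peptide C5a. Its log2 signal in sham mice 1 to 6 was 8.60, 8.88, 8.45, 8.46, 9.40 and 8.52. In injured mice it was 6.79, 7.29, 6.20, 6.79, 7.38 and 6.45, so that all were below the lowest sham mouse. It fell by 1.90 on the log2 scale (SE 0.23), 3.73-fold, with an adjusted p of 4.74e-04. Within the sets the difference was -1.70, -1.95 and -2.04, the narrowest range of the called members. Of 11 ependymal markers, 7 fell as well, with a median difference of -1.01 over the list. The brightest of them, Ak7, an adenylate kinase of cilia, fell by 0.96. The mean of the list was 8.85 to 9.39 in injured mice, below the sham range. Neuron markers were lower too. All 10 had a difference below 0, with a median of -1.12, and 1 of them, Syt1, fell. The brightest, Gad1 and Snap25, differed by -0.98 and -1.26 and did not pass. The mean of the 10 was 7.28 to 9.44 in injured mice, and within the sets it differed by -0.75, -1.30 and -0.96. The part of ependymal cells and of neurons in the fall of Hc was not tested.

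The 3 C1q chain genes, whose products assemble into 1 protein, rose by smaller amounts, and for each the sham and injured mice overlapped. C1qc had the largest difference, 1.44 ± 0.30 on the log2 scale (SE), 2.72-fold (adjusted p = 0.0192). In sham mice 1 to 6 its log2 signal was 6.72, 6.62, 6.69, 6.74, 6.64 and 7.47. In injured mice it was 9.01, 8.73, 7.60, 7.15, 8.22 and 8.82. Only injured mouse 4 was below the highest sham mouse, which was mouse 6. C1qb differed by 1.24 ± 0.26 (SE), 2.36-fold (adjusted p = 0.018). Its log2 signal was 5.92, 5.92, 6.65, 7.18, 5.89 and 6.51 in sham mice and 7.70, 7.11, 7.81, 7.22, 7.40 and 8.27 in injured mice. Here sham mouse 4 was above injured mouse 2, and all other sham mice were below all injured mice. The C1qb call was lost with centring (adjusted p = 0.0696), quantile normalization (0.0552), array weights (0.0639) or no moderation (0.0512). C1qa differed by 0.97 ± 0.22 (SE), 1.96-fold (adjusted p = 0.0336). Its log2 signal was 6.69, 6.69, 7.57, 7.70, 6.68 and 7.30 in sham mice and 8.62, 8.02, 8.02, 7.55, 8.16 and 8.07 in injured mice. Injured mouse 4 lay below sham mice 3 and 4. The C1qa call was lost when any array other than those of sham mice 3 and 4 and injured mouse 4 was left out (9 of 12 arrays, adjusted p up to 0.0862).

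The C1q differences were smallest in mice 3-4. For C1qa they were 1.63, 0.15 and 1.13 within the sets, for C1qb 1.49, 0.60 and 1.63, and for C1qc 2.20, 0.66 and 1.46. When the set entered the fit as a block, all 3 were higher, with adjusted p of 0.0126, 0.00358 and 0.00198. A test of whether the injury difference itself varied between the sets found no probe set that passed. Its adjusted p was 0.277 for C1qa, 0.577 for C1qb and 0.32 for C1qc, and its unadjusted p was 0.00667, 0.138 and 0.0134. With 2 mice per group in each set and adjustment over all probe sets, this test cannot decide whether the sets differed. Without the 4 arrays with the most muscle signal, C1qc no longer passed (1.48, adjusted p = 0.113), while C1qa (1.39) and C1qb (1.54) did. With the set as a block besides, C1qc passed again, at 1.99 (adjusted p = 7.84e-04).

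**Figure D2:**
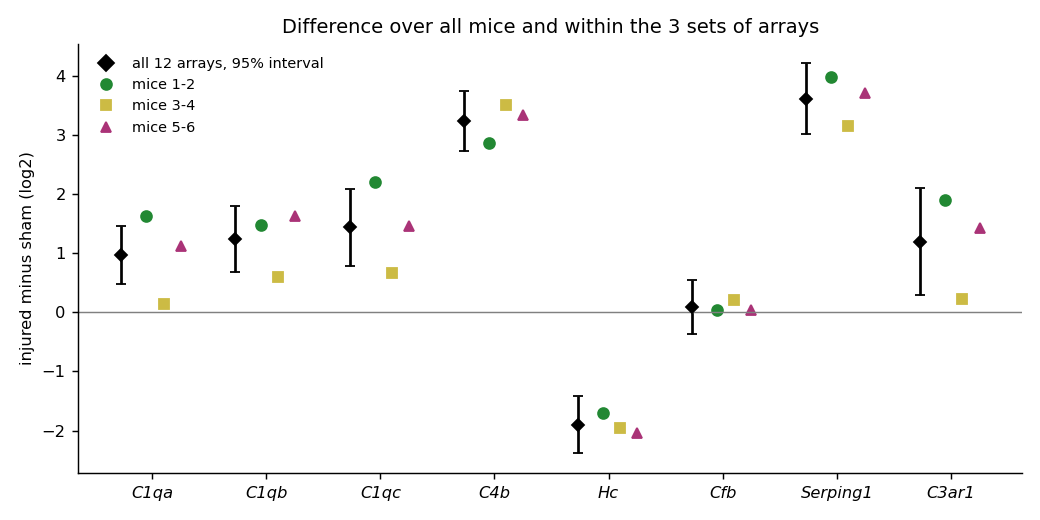
Injured minus sham log2 difference of each complement gene, over all 12 arrays with its 95% interval (diamonds) and within the 3 sets of mouse numbers (coloured symbols, 2 sham and 2 injured mice each). C4b, Serping1 and Hc were far from 0 in every set, while C1qa and C3ar1 were near 0 in mice 3-4, at 0.15 and 0.23.

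C3ar1 encodes the receptor of C3a, the small fragment of C3, and is carried by myeloid cells. Its difference of 1.19 ± 0.42 on the log2 scale (SE), 2.29-fold, did not pass (adjusted p = 0.204). In sham mice 1 to 6 the log2 signal was 5.74, 5.94, 5.44, 5.19, 4.66 and 5.01, and in injured mice it was 7.92, 7.57, 5.72, 5.38, 6.60 and 5.93. Injured mice 1 and 2 were far above the rest, and injured mice 3, 4 and 6 lay within the sham range. Within the sets the differences were 1.91, 0.23 and 1.43. C3ar1 passed when the set (adjusted p = 0.00662) or the replicate number (adjusted p = 0.0268) entered the fit as a block, and not when any 1 array was left out (adjusted p 0.0979 to 0.41). The test of a difference between the sets gave an adjusted p of 0.223 (unadjusted p = 0.00215), with the same limit as for the C1q genes. Its 2 other probe sets differed by 1.19 and 1.03, and the mean of all 3 passed (1.14, adjusted p = 0.0487).

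Markers of microglia and macrophages were also higher in injured mice. All 11 measured markers had a difference above 0, with a median of 0.44, and 2 passed, which were Aif1 and Cd68. The brightest of the list were Ctss, a lysosomal protease, at 0.29, and Tyrobp, a signalling adaptor, at 0.63, and neither passed. The mean of the 11 was 6.61, 6.65, 7.51, 7.79, 6.46 and 7.42 in sham mice 1 to 6 and 7.89, 7.71, 7.66, 7.78, 7.23 and 7.59 in injured mice. Sham mice 3, 4 and 6, in which C1qa, C1qb and Serping1 were highest, were also highest for these markers, whereas C1qc was high only in sham mouse 6. Among injured mice the order differed, since mouse 4 had the lowest C1qa and C1qc and the second highest marker mean, and mouse 5 had the lowest marker mean and the second highest C1qa. Neutrophil markers also had their highest sham means in sham mice 3, 4 and 6, at 11.22, 11.42 and 10.74, against 5.10, 5.20 and 7.36 in the other sham mice. Injured mice 3 and 4 were at 10.43 and 11.09, and the other injured mice at 4.99 to 7.59. Monocyte means were 7.99, 8.07 and 8.15 in sham mice 3, 4 and 6 and 7.94 and 8.04 in injured mice 3 and 4. Erythroid means were 8.51, 9.37 and 8.25 in these sham mice and 8.27 and 7.71 in these injured mice. Both lists were lower in all other mice. Over 7 markers of resting microglia the sham mean was 6.06 to 6.59 and the injured mean 6.62 to 7.42. Of these 7, 2 rose, but only 3 had a difference above 0, and the median was -0.09. The part of these cells in the differences of C1q genes and Serping1 was not tested.

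**Figure D3:**
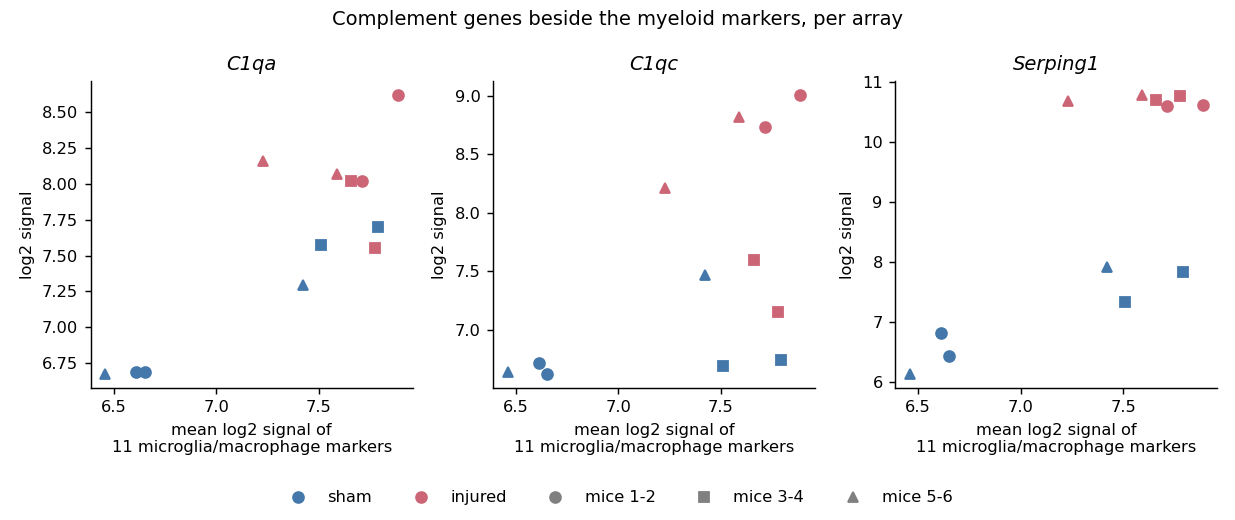
Log2 signal of C1qa, C1qc and Serping1 against the mean log2 signal of 11 microglia and macrophage markers on the 12 ependymal arrays, coloured by group, with symbols for the sets. The markers ranged from 6.46 to 7.79 in sham and from 7.23 to 7.89 in injured mice. C1qa was higher in the 3 sham mice with the higher marker means, and among injured mice it did not follow them.

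Cfb encodes factor B, the protease of the alternative pathway. Its log2 signal was 4.20 to 4.97 in sham mice (median 4.73) and 4.24 to 5.32 in injured mice (median 4.77). The groups overlapped, and the difference was 0.09 (95% interval -0.36 to 0.55, adjusted p = 1). Its level was at the 40.1 percentile of all probe sets, so that a small change would be hard to see.

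Over the 12 arrays, with the set means taken out, C4b and Serping1 had a Pearson r of 0.98, and Hc had an r of -0.96 with each. The 3 C1q genes had an r of 0.92 to 0.96 with each other. These describe arrays that share the injury difference, and no test was made. Among 11182 genes of above-median signal, the pattern most like that of Serping1 was that of Tnfrsf1a (r = 0.99), followed by Cav1 and Paqr8. For C4b it was Itgav (r = 0.99), then Cmtm3 and Stat3, and for Hc it was Maob (r = 0.99), then Elovl4 and Serpinb1b. C1qa (r = 0.97) and C1qc (r = 0.99) had the same nearest gene, Pycard. C1qb was nearest to Coro1b (r = 0.99) and C3ar1 to Psmd14 (r = 0.97) and then to C1qa.

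Of 46 other complement genes, 38 were measured on the ependymal arrays. Of these, 5 (13.2%) rose after injury by limma at this threshold, beside 2.91% of all genes. None of the 38 fell, beside 1.87% of all genes (7 higher and 1 lower of the 38 at an unadjusted p under 0.05). The count that rose was 6 with the replicate block and 7 with the set as a block. Their median difference was 0.03, compared with 0.02 over all genes. In the classical pathway, C1s1, which encodes the protease C1s, rose by 2.11 ± 0.22 on the log2 scale (adjusted p = 1.81e-04). Signals were 5.57 to 6.45 in sham mice (median 5.77) and 7.21 to 8.46 in injured mice (median 8.08), without overlap. C1s1 has close copies, so that its signal may be shared.

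The pentraxin gene Ptx3, whose product binds C1q, had the largest difference among these 38, at 3.58 ± 0.41 (adjusted p = 3.52e-04). Sham mice were at 4.74 to 6.14 (median 5.83) and injured mice at 7.50 to 10.36 (median 9.27). Among soluble regulators, Cfi, which encodes factor I, rose by 1.41 ± 0.23 (adjusted p = 0.00406), and Vtn, which encodes vitronectin, an inhibitor of the terminal pore, rose by 1.15 ± 0.25 (adjusted p = 0.0248). Vtn is also in the list of pericyte markers, of which 2 of 7 rose. Among membrane regulators, Cr1l, which encodes the rodent regulator Crry, rose by 0.59 ± 0.12 (adjusted p = 0.0149). None of the 8 lectin pathway genes, the 5 terminal component genes or the 6 receptor genes passed. The receptor gene nearest the threshold was Itgax, a chain of complement receptor 4, at 0.31 (adjusted p = 0.372), and it passed with the replicate block (adjusted p = 0.0381) or the set as a block (0.0133). C1ra, which encodes the protease C1r, differed by 0.33 (adjusted p = 0.221) and passed with the set as a block (0.0425). Susd4, a membrane protein that inhibits complement, differed by -0.71 (adjusted p = 0.108) and passed with either block (0.026 and 0.0125). Clu, which encodes clusterin, was among the brightest of all genes and differed by -0.14 (adjusted p = 0.926).

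In neurospheres, 3 of the 8 members rose without factors and none fell, by limma or at an unadjusted p under 0.05 (3 and 0). Among all genes 12.1% rose and 16.2% fell. C4b, Serping1 and Hc were the ones that rose. C4b had the largest difference, 1.91 ± 0.27 on the log2 scale (SE), 3.77-fold (adjusted p = 2.09e-04). In cultures 1 to 4 its log2 signal was 4.57, 3.65, 4.05 and 3.86 in growth medium, 6.85, 5.83, 5.74 and 5.37 without factors, and 4.38, 4.52, 4.34 and 4.44 after their return. All cultures without factors were above all others. Such a rise over growth medium without overlap was seen in 13.2% of all genes. On return C4b fell by 1.53 (SE 0.27, adjusted p = 0.00236), and it was the only member that fell there, while none rose (at an unadjusted p under 0.05, 3 fell and 0 rose). Among all genes 10.1% rose and 6.56% fell on return. Compared with growth medium, the returned level of C4b differed by 0.39 (95% interval -0.20 to 0.97, adjusted p = 0.538). The comparisons share their arrays, so that a rise and the fall that follows are not independent.

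Serping1, in cultures 1 to 4, was at 3.69, 3.40, 3.70 and 3.44 in growth medium, under the median of all probe sets (3.98). Without factors it was 4.26, 4.55, 4.93 and 3.97, a difference of 0.87 ± 0.18 (SE), 1.83-fold (adjusted p = 0.00313). After return it was 3.87, 3.87, 4.27 and 4.07, which overlapped with the cultures without factors. The difference of -0.41 did not pass (adjusted p = 0.184), though it did without culture 4 of the cultures without factors (-0.56, adjusted p = 0.0434). All returned cultures were above all growing ones, with a difference of 0.47 that did not pass either (adjusted p = 0.15). In this comparison 10.8% of all genes were higher without overlap. Returned against growing cultures gave no called member in either direction by limma (1 higher and 0 lower at an unadjusted p under 0.05), where 7.86% of all genes rose and 7.43% fell.

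Hc rose by 0.37 ± 0.09 (SE), 1.30-fold (adjusted p = 0.00652), opposite in sign to its difference after injury, and this was from one low level to another. Its log2 signal was 3.49, 3.47, 3.41 and 3.46 in growth medium, 4.03, 3.64, 3.79 and 3.86 without factors, and 3.48, 3.60, 3.60 and 3.64 after return. The median of all probe sets was 3.98. On return the difference was -0.25 (adjusted p = 0.0798), and it passed without culture 2 of the cultures without factors (-0.32, adjusted p = 0.0253).

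**Figure D4:**
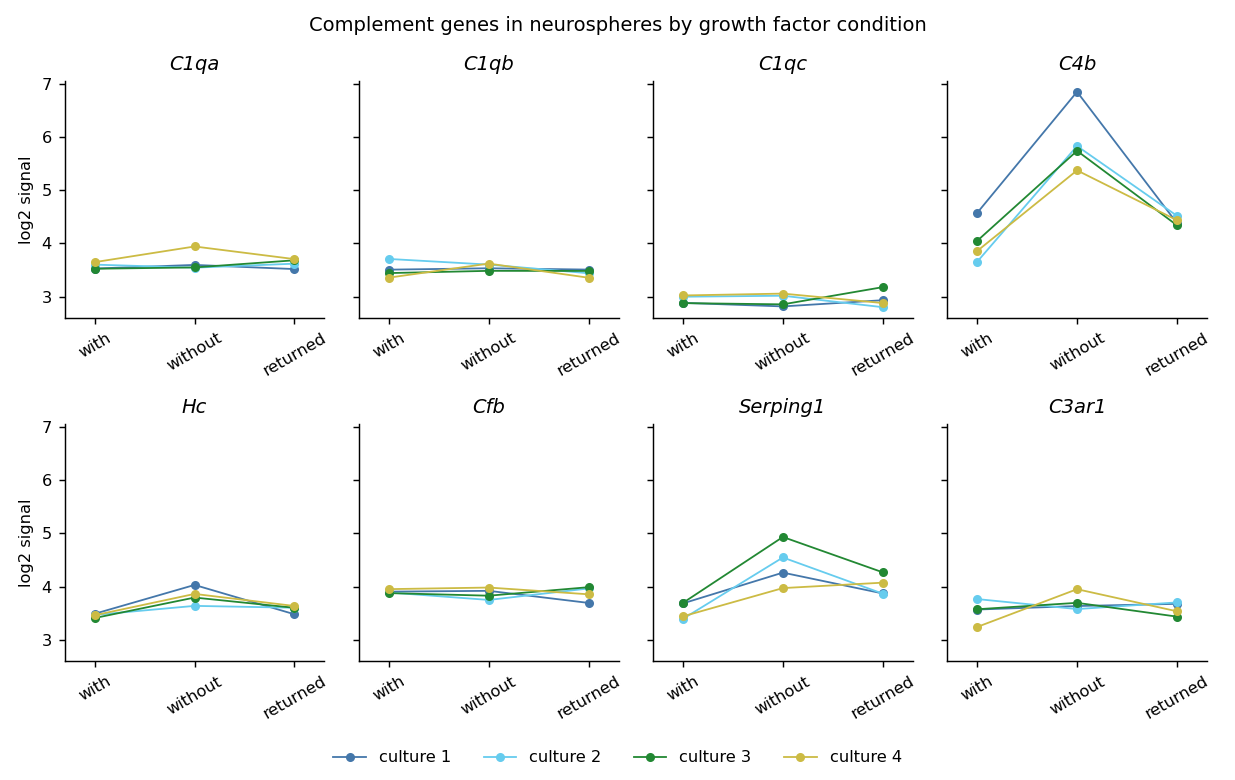
Log2 signal of 8 complement genes in 4 neurosphere cultures with EGF and FGF2, without them, and after their return, with a line for each culture. C4b was highest without factors in all 4 cultures (5.37 to 6.85), and the C1q genes, Cfb and C3ar1 remained between 2.8 and 4.0.

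The C1q genes, Cfb and C3ar1 passed in none of the 3 comparisons. Their largest difference was 0.18, for C3ar1 without against with factors (95% interval -0.08 to 0.44). The mean of 11 microglia and macrophage markers was 3.79 to 4.14 on all neurosphere arrays, near the median of all probe sets. Of these 11 markers none rose without factors. Astrocyte markers moved with C4b and Serping1, since 6 of 10 rose and 1 fell, and their mean was 6.35 to 6.46 in growth medium, 7.57 to 7.93 without factors and 6.79 to 6.996 after return. Their brightest genes were Slc1a3, a glutamate transporter, which fell by 0.35, and Aldoc, which rose by 0.42. Ependymal markers moved too, with 5 of 10 higher without factors, and means of 4.21 to 4.29, 4.93 to 4.95 and 4.33 to 4.57. The part of these cell types in the results was not tested. With culture means taken out, C4b had an r of 0.92 with Hc and 0.85 with Serping1 over the 12 arrays, as a description. The genes most like C4b were Specc1l (r = 0.99), Chpt1 and Folr1, among 13188.

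Of the 46 other complement genes, 43 were measured in neurospheres. Without factors 7 rose and 2 fell. These are 16.3% and 4.65% of the 43, beside 12.1% and 16.2% of all genes. The count that rose was 5 with centring, after quantile normalization or without dim probe sets. The regulators on the cell surface were the role with the most calls, with 5 of 8 higher and 1 lower. Cd59a, which encodes an inhibitor of the terminal pore, rose by 5.43 ± 0.29 on the log2 scale, 43.2-fold (adjusted p = 7.14e-08). The log2 signal of Cd59a was 3.52 to 4.31 in growth medium (median 3.87), 8.95 to 9.67 without factors (median 9.34) and 7.28 to 8.68 after return (median 8.49). It thus lay far above the growing cultures after return, by 4.34 (adjusted p = 2.18e-06), although it had fallen by 1.09 (adjusted p = 0.0268). Its neighbour Cd59b, a close copy that may share signal with it, rose by 1.61 and fell by 0.85. Csmd1, a large membrane protein that inhibits complement, rose by 1.68 (adjusted p = 1.38e-06) and fell by 0.96 on return. Cd55, which speeds the decay of C3 convertases, rose by 1.05 (adjusted p = 0.0258), and Cd46, a cofactor of factor I, by 0.51 (adjusted p = 0.0396). Both were at low levels, near the median of all probe sets (3.98). Cd55 was 3.07 to 3.61 in growth medium and 3.77 to 5.36 without factors. Cd46 was 3.29 to 3.86 in growth medium and 3.69 to 4.35 without factors. Susd4 fell by 1.01 (adjusted p = 1.07e-04).

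Among soluble regulators Clu rose by 3.78 ± 0.12, 13.7-fold (adjusted p = 2.75e-09). The log2 signal of Clu was 4.83 to 5.26 in growth medium (median 5.16), 8.77 to 9.14 without factors (median 8.82) and 8.35 to 8.68 after return (median 8.39). It fell by 0.43 on return (adjusted p = 0.0324) and remained 3.35 above growth medium. Masp1, a lectin pathway protease gene, fell by 0.75 (adjusted p = 2.06e-04), and Cfp, which encodes properdin, the stabiliser of the alternative pathway convertase, rose by 0.30 (adjusted p = 0.0186) and fell by 0.33 on return. None of the 6 terminal component genes and none of the 7 receptor genes passed without against with factors. On return, 5 of the 43 fell and none rose by limma (5 and 2 at an unadjusted p under 0.05), which is 11.6% lower, beside 6.56% of all genes. Returned against growing cultures had 4 higher, Clu, Cd59a, Cd59b and Csmd1, and 2 lower, Masp1 and Susd4 (9.3% and 4.65%, beside 7.86% and 7.43% of all genes). The genes that rose after injury, C1s1, Ptx3, Cfi, Vtn and Cr1l, differed by 0.14, 0.20, -0.03, 0.14 and 0.18 without factors, and none of them passed.

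**Figure D5:**
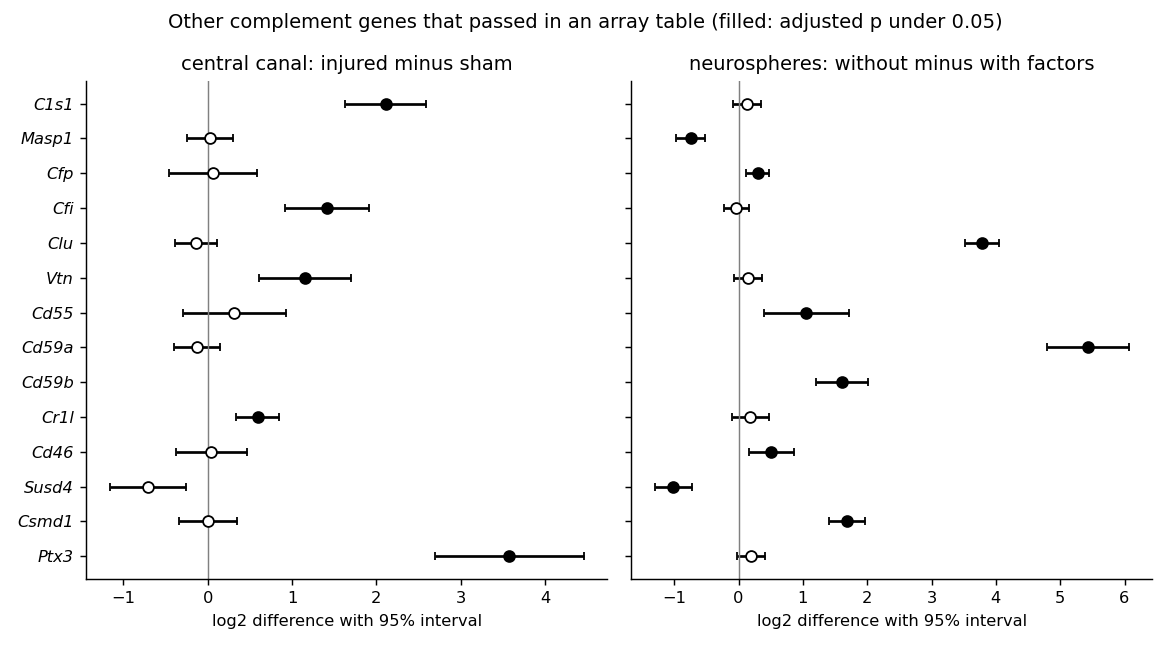
Log2 difference with its 95% interval for the 14 other complement genes that passed after injury or on removal of factors, in both comparisons (filled symbols have an adjusted p under 0.05). C1s1, Cfi, Vtn, Cr1l and Ptx3 rose after injury, while Clu, Cd59a, Cd59b, Csmd1, Cd55, Cd46 and Cfp rose in neurospheres without factors. Cd59b has no point on the left since it was not analysed there.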

How the data were processed

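The deposited log2 values were made by the authors with RMA (background correction, normalization between arrays and 1 value per probe set). Affymetrix Expression Console 1.2.1 is named in the processing notes of the submitters. The authors normalized the ependymal and the neurosphere tables, which come from different array types, separately, so that levels were not compared between them. After control probe sets were left out (104 and 190), 45037 and 41155 remained, of which 28898 and 23521 name 1 gene, and the brightest of these on average stood for its gene. No source used here gives the build behind the annotation. The number of arrays limits the precision. The labels give the neurospheres as passage 1, which the methods do not. The methods also give another number of days without factors than the labels.

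Tests were two-sided with lmFit and eBayes of limma 3.58.1 (R 4.3.3), with Benjamini-Hochberg adjustment over all probe sets. Sham and injured mice were fitted without a block and the 3 neurosphere groups in a single fit. The script was tested on simulated data. Python 3.11.15 and matplotlib 3.10.9 drew the figures. The members and all gene lists were chosen with earlier results of these data known. Named were all members, up to 4 other complement genes per role that passed with the smallest p (in roles with no call, up to 2), the 2 brightest genes of a marker list that moved with a result, and the 3 genes most like a member. Aif1, Cd68, Syt1, Cd55, Cd46 and, on ependymal arrays, Clu, C1ra and Susd4 are exceptions, chosen after seeing their values.

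Labels give the same culture number for the same mouse in the 3 neurosphere conditions, and same-numbered deviations from the group means correlated at 0.312 to 0.391, 0.275 to 0.359 and 0.16 to 0.306 in the comparisons without against with, returned against without and returned against with. Sham and injured arrays of the same number are different mice and correlated at 0.425 to 0.786, and at -0.575 to 0.105 with the means of the sets taken out, so that blocking by number there mostly blocks by set. Alternatives were centring, quantile normalization, leaving out dim probe sets, other moderation, array weights, the mean of all probe sets, the replicate block, the set of arrays, each array left out, the study's thresholds and a fit of only 2 groups. Leaving out the 4 arrays with the most muscle signal and the test between sets were added after the values had been seen.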

Additional observations from a re-analysis of the deposited data

Results flagged for a closer look

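In 3 of 77 groups of arrays, which were the members and the called complement genes by group, 1 sample stood apart from the others by Dixon's criterion, where chance gives about 1 in 20. C1qc was 7.47 on the log2 scale in sham mouse 6, with the other sham mice at 6.62 to 6.74. C1qa was 3.94 in culture 4 without factors, with the other cultures at 3.55 to 3.60. Masp1 was 4.90 in returned culture 1, with the other returned cultures at 5.00 to 5.02.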

How the results depend on the processing

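No called member changed direction under an alternative. Differences near 0 that did not pass did change sign. Cfb ranged from -0.06 to 0.32 after injury, and in neurospheres Cfb, the C1q genes and, for returned against growing cultures, C3ar1 crossed 0 in 1 or more alternatives. After injury, C4b, Hc and Serping1 kept their call under every alternative except within mice 5-6, where the adjusted p was 0.0525, 0.14 and 0.103. The count of members that rose was 5. It was 3 with arrays centred on their medians, 3 after quantile normalization, 2 without moderation, 3 with array weights, 2 within mice 3-4 and 0 within mice 5-6, and between 3 and 5 when an array was left out, with 3 without sham mouse 5 or injured mouse 6. The losses were among the C1q genes in these settings, except within mice 5-6. C1qc had an adjusted p of 0.0511 without sham mouse 5 and 0.0501 without injured mouse 6. Within mice 5-6 the count that fell was 0. Of the other complement genes, the count that rose was 3 with centring, 3 within mice 3-4 and 0 within mice 5-6, and the count that fell was 1 with array weights, with the replicate block, with the set as a block, within mice 1-2 and within mice 3-4, and 0 or 1 when an array was left out (1 without sham mouse 6). The replicate block, the set as a block and the mean of all probe sets each moved the members that rose from 5 to 6, by C3ar1.

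In neurospheres the count of members that rose without factors was 1 at the study's thresholds, since only C4b differed 2-fold, and the count of other complement genes that fell was 1. Those that rose were 4 to 7 when an array was left out, with 4 without growing culture 3. On return, the members that fell were 2 with array weights and 1 to 2 when an array was left out (2 without culture 2 or 4 of those without factors). The other complement genes that rose were 2 with centring, quantile normalization, without dim probe sets and with the mean of all probe sets, 1 with the replicate block and 0 to 1 when an array was left out. Those that fell were 3 with centring, without moderation and with a fit of only 2 groups, 1 at the study's thresholds and 2 to 5 when an array was left out, with 2 without culture 2 of those without factors and 3 without returned culture 2 or 3. For returned against growing cultures, 1 member rose with a fit of only 2 groups. The other complement genes that rose were 2 and those that fell 0 at the study's thresholds, and 1 to 2 fell when an array was left out. The replicate block changed no other call of a member. The cause of these changes was not tested.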
